A study of Mus musculus with 5 samples.

Results

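Long circular RNAs of mouse testis were described here: the circRNAs to which the deposited table gives a host gene symbol and whose back-splice ends lie more than 50000 bases apart. They numbered 1340 of 11957 circRNAs and came from 519 host genes. Host and span alone chose them, and no measured level was used. The testes came from male C57/BL6J mice aged 10 weeks, which had received triptolide at 50 µg per kg per day by gavage or saline, and the tissue was taken at 35 days, after a treatment whose length the labels leave implicit. Triptolide is a diterpenoid of the vine Tripterygium wilfordii. The labels give 6 mice per group and no genetic change, and the data hold 2 control and 3 triptolide libraries. Whether a library is 1 animal or a pool is not stated, so a p-value reflects the spread among these 5 libraries only, which may be technical. Total RNA was freed of ribosomal RNA and sequenced as read pairs of 150 bases. No step that enriches circles is mentioned in the labels. In whole testis, fewer cells of a type and less RNA per cell cannot be told apart.

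A circular RNA forms when the spliceosome joins the end of a downstream exon to the start of an upstream exon of the same transcript. Only a read across that back-splice junction tells the circle from the linear transcript, and the circle resists exonucleases because it has no free end. The span between both ends is a genomic distance: introns inside it are usually removed, so a long span does not by itself make a long RNA. Testis is known for an abundant circRNA population, much of it from genes used in meiotic cells and spermatids.

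Some spans hold microRNA genes, and these are shown because they are the named small RNAs that lie between the ends of long circles. Whether any circle carries them was not tested. By the RefSeq table for GRCm38.p6, 12 long circRNAs held 9 microRNA genes in 8 hosts. The members with the widest detection among them lay in Nbea, a neuronal trafficking protein gene, and in Phf21a, a gene for a histone-reading corepressor subunit. The Dnm3 circle held the pair Mir199a-2 and Mir214, a known cluster antisense to this dynamin gene, so that a Dnm3 circle would hold the complementary strand. The mature RNAs follow 5′ to 3′, from the same RefSeq table, with the seed (bases 2 to 8) in capitals, and no seed among them is shared.
mmu-miR-12194-3p (in Nbea): uCUGUGGGucuguuuguccguc
mmu-miR-1955-5p (in Phf21a): aGUCCCAGgaugcacugcagcuuuu
mmu-miR-199a-5p (in Dnm3): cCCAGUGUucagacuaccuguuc
mmu-miR-199a-3p (in Dnm3): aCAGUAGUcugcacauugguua
mmu-miR-214-3p (in Dnm3): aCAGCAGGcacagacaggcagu
The Nbea circle of 205059 bases that holds the first of these had 0 and 16 SRPBM in the controls and 28, 26 and 34 after triptolide. The Phf21a circle of 173682 bases had 17 and 24 SRPBM in the controls and 28, 35 and 0 after triptolide. The Dnm3 circle was at 33 SRPBM in control 2 and listed at 0 in the other libraries. The triptolide values of the Nbea circle were all above the controls, at amounts worth few reads, and the other circles overlapped between groups. The small RNAs themselves were not measured.

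SRPBM, the unit of these values, expresses reads across a back-splice junction relative to all mapped reads. The worth of 1 read, recovered from the steps of the low values, was 8.25 to 9.52 SRPBM, and the smallest value listed in any library was 2 reads, 16 to 19 SRPBM. The libraries held 32825 to 44349 junction reads in all, and 3927 to 5281 of them fell on long circRNAs. Among fixed marker genes of testis cells, 16 of 20 germ cell markers hosted circRNAs, with summed values of 7536 and 7948 SRPBM in the controls and 5999, 7698 and 5521 after triptolide. Of those 20, Adam32, Crem, Dnah8 and Sycp1 hosted 10 long circRNAs. No Sertoli cell, peritubular or endothelial marker hosted a circRNA, and 1 of 8 Leydig cell and 1 of 5 immune markers did, with summed values of 0 to 57 SRPBM per library. Their part in the results was not tested. The meaning of a 0 is not stated in the sources at hand. One library, control 1, was listed at 0 for many circRNAs that were abundant in the other 4. The totals, the ratio within hosts, the counts of calls and some named circles are therefore also given without those circRNAs or that library. The medians by host list and most named circles are given with control 1 only.

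Spans ran from 50084 to 398895 bases, with a median of 74571.5 bases against 12764 bases for the 9019 shorter circRNAs with a host. Between 50000 and 100000 bases lay 975 members, between 100000 and 200000 bases 292, and above 200000 bases 73. At the threshold, the nearest members were circles of Spag16 (50084 bases), Ppp2r3a (50114 bases) and Elp4 (50144 bases), with means of 3.4, 6.6 and 105.8 SRPBM. Just below it were circles of Caprin2 (49984 bases), Ptpn4 (49975 bases) and Pou2f1 (49960 bases), with means of 6.8, 26 and 4.8 SRPBM. Of these 6, the Elp4 circle was the only one above a mean of 100 SRPBM.

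The level of a long circRNA was close to that of a shorter one. The median of the 5-library mean was 8.6 SRPBM for long and 8.2 SRPBM for shorter circRNAs, and 5.97% of long against 5.02% of shorter ones reached a mean of 100 SRPBM. Since 51.2% of long and 53.4% of shorter circRNAs were above 0 in 1 library alone, both medians rest on few reads. They describe sparse detection more than level. Among the long circRNAs, span and mean level were nearly unrelated, with Spearman's rho of -0.043 as a description across 1340 circRNAs that share the same 5 libraries. The median mean was 8.8 SRPBM from 50000 to 100000 bases, 8.6 SRPBM from 100000 to 200000 bases and 6.8 SRPBM above that. Members above 0 in all 5 libraries made up 13.2%, 15.1% and 5.48% of these span classes, and the highest mean in each was 1878.6, 787.4 and 114.6 SRPBM.

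**Figure D1:**
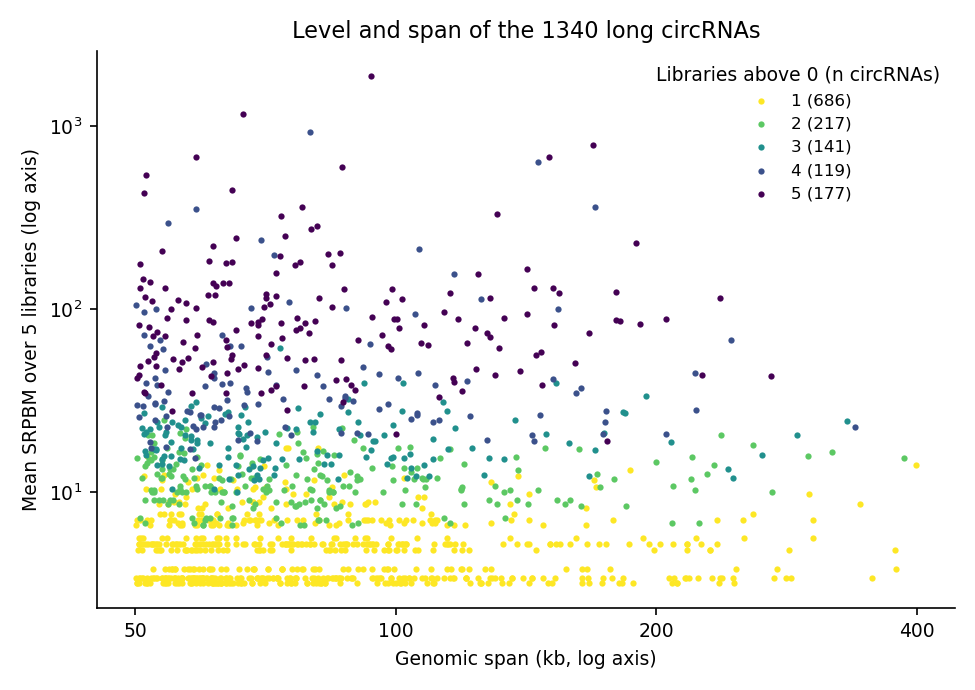
Mean SRPBM over 5 libraries (log axis) against genomic span in kb (log axis) for the 1340 long circRNAs; each point is 1 circRNA, coloured by the number of libraries in which it was above 0. The level shows no trend with span up to 200 kb, and the 686 circRNAs above 0 in 1 library form the low bands.

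Detection was sparse. In control libraries 496 and 690 members were above 0, and in triptolide libraries 559, 643 and 516. As shares of the members these were 37% and 51.5% in the controls and 41.7%, 48% and 38.5% after triptolide. For shorter circRNAs with a host the shares were 39.2% and 45.9%, then 38.3%, 47.5% and 39.1%. The share was higher for long circRNAs in 3 of 5 libraries, by 1.33 percentage points on average (two-sided exact sign-flip permutation p = 0.4375, where the smallest p is 2 of 32 sign patterns, so 5 libraries cannot pass 0.05). Within a library the median of the values above 0 was 28 to 35 SRPBM for long circRNAs and 33 to 38 SRPBM for shorter ones. Long and shorter circRNAs had equal medians in both controls and in triptolide B and C. In triptolide A the medians were 28 and 38 SRPBM.

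More than every other member was seen once: 686 (51.2%) were above 0 in 1 library alone, against 53.4% of shorter circRNAs. In all 5 libraries 177 (13.2%) were above 0, against 12.4% of shorter ones, and these 177 held 58.2% of the summed long SRPBM. The members of 1 library had a median mean of 4.8 SRPBM and the members of all 5 a median mean of 82.2 SRPBM. Control 1 and control 2 shared 305 members, which is 61.5% of those of control 1 and 44.2% of those of control 2. Triptolide A and triptolide B shared 343, or 61.4% and 53.3%. Control 2 and triptolide C shared 325, or 47.1% and 63%, and over all 10 pairs the shared members made up 44.2% to 63% of a library.

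A few circles carried much of the signal, and the 10 with the highest mean held 21% of it. The circle of Gbe1, the glycogen branching enzyme gene, stood highest (16:70401734-70495399, 93665 bases). It had 2366 and 1499 SRPBM in the controls and 1569, 1948 and 2011 after triptolide, or 1932.5 ± 613.1 (SD, n = 2) and 1842.7 ± 239.1 (SD, n = 3). The next was in Strbp, a spermatid RNA-binding protein gene (2:37580673-37647285), at 800 and 1516 SRPBM in the controls and 1071, 1178 and 1262 after triptolide. For both circles the triptolide values lay between the control values. Pde1c, a calmodulin-dependent phosphodiesterase gene, gave a circle of 58805 bases with 686 and 654 SRPBM in the controls and 574, 797 and 670 after triptolide. The circle of Ubn2, a gene for a partner of the histone H3.3 chaperone HIRA, had 439 and 513 SRPBM in the controls and 411, 593 and 731 after triptolide. That of Ncoa2, a nuclear receptor coactivator gene, had 387 and 430 SRPBM in the controls and 487, 398 and 548 after triptolide. Groups overlapped for each of these circles, and the largest log2 fold change among these 5, that of Ubn2, was 0.24 ± 0.33 (SE) in limma (adjusted p = 0.95).

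Below the first 10, the circles above 0 in all 5 libraries included several of genes used in cilia and sperm. Rfx3, a transcription factor gene of ciliated cells, had a circle of 51192 bases with 387 and 339 SRPBM in the controls and 545, 487 and 391 after triptolide. Its triptolide values were all above the control values, but limma did not call the difference (log2 fold change 0.36 ± 0.29 SE, adjusted p = 0.76). Catsperb encodes an auxiliary subunit of the sperm calcium channel CatSper, and its circle of 65281 bases had 263 and 240 SRPBM in the controls and 296, 230 and 200 after triptolide. Spag16, a gene of the axonemal central apparatus, had 237 and 290 SRPBM in the controls and 143, 248 and 121 after triptolide for a circle of 53612 bases. For Catsperb and Spag16 the groups overlapped. Other hosts in this set were Man1a2, Scaper, Lpp, Ncoa1, Tasp1 and Rims2, with means of 221.6 to 361 SRPBM.

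**Figure D2:**
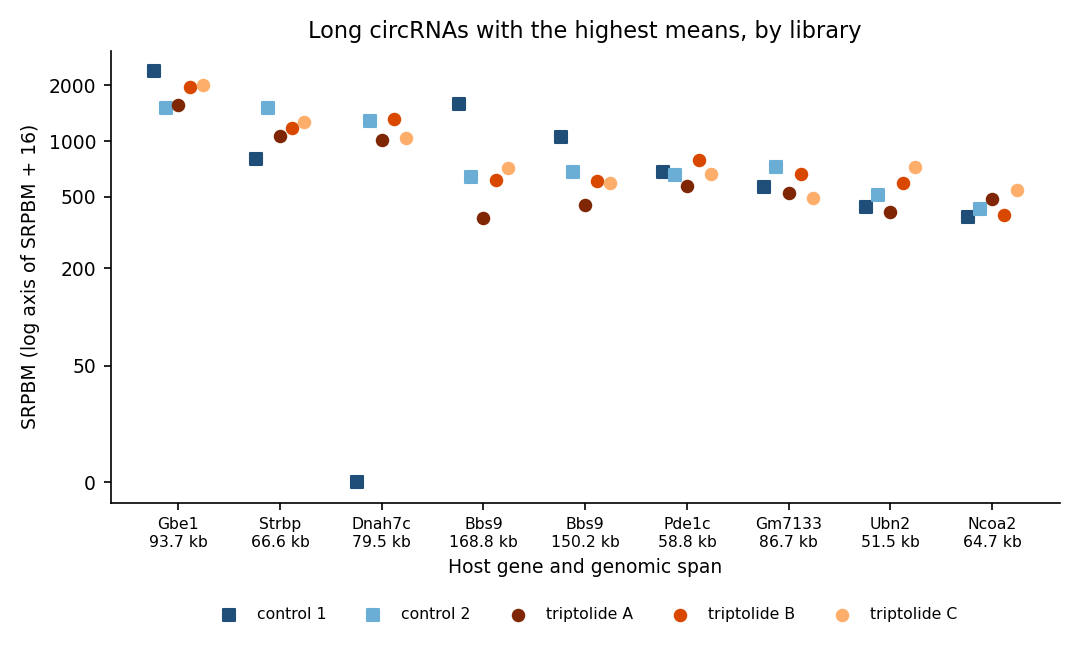
SRPBM of 9 of the 10 long circRNAs with the highest mean, named by host gene and span, with 1 point per library on a log axis of SRPBM + 16 (squares control, circles triptolide). Values of most circles lie close together in the 5 libraries, and that of Dnah7c is at 0 in control 1 alone.

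The circles of longest span were rare. The longest came from Rabgap1l, a Rab GTPase-activating protein family gene, over 398895 bases, and was at 70 SRPBM in triptolide B and at 0 elsewhere. That of Nell1 (386347 bases) was at 33 SRPBM in control 2 and 44 in triptolide B. Circles of Rims2 (378596 bases), Exoc4 (377430 bases), Trhde (354689 bases) and Tbc1d5 (343554 bases) were each above 0 in 1 library, at 17 to 43 SRPBM. Among the 73 members above 200000 bases, 4 were above 0 in all 5 libraries.

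Host genes differed widely in how many long circles they gave. A single long circRNA came from 281 hosts, 2 or 3 came from 126, and 4 or more from 112, which together held 763 members. Of all 519 hosts, 456 (87.9%) also gave shorter circRNAs and 63 gave only long ones. In the 456 shared hosts the median share of SRPBM in long circles was 21.3%, and in 96 hosts the long circles held more than the shorter ones.

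The host with the highest number of long circles was Tbc1d5, a gene for a Rab GTPase-activating protein of endosomal transport, with 23. They were spread over 11 lower and 8 upper ends, and the highest of them (17:50963693-51143421) held 10.6% of the host's long signal. Rims2 (presynaptic active zone) and Vps13b (a lipid transfer protein of the Golgi) gave 19 each. Rfx3 and Cep112, a centrosomal protein gene, gave 17 each, and Scaper and the tyrosine kinase gene Fer 16 each. The balance of long to shorter circles was not alike: long circles held 84.4% of the circRNA signal of Rfx3 and 70.8% of that of Fer. They held 46.8% in Tbc1d5, 33.7% in Scaper and 23% in Cep112. Among hosts of the 10 highest circles, the share in long circles ran from 9.97% in Bbs9, a gene of the BBSome that serves ciliary transport, to 95.7% in Ncoa2.

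Long circles rarely stood alone at their ends. At least 1 end was shared with another hosted circRNA in 1207 members (90.1%), against 89.6% of the 2594 shorter circRNAs of the same hosts and 65.2% of all shorter ones. Both ends were shared in 46.7% of the long circles, 35.2% of the shorter circles of the same hosts and 18.3% of all shorter ones. In all, 1039 members (77.5%) shared an end with a shorter circle. Another circRNA of the same host lay inside the span in 1189 members (88.7%), with a median of 4 and at most 40. A circRNA of a host with a different symbol lay inside in 3 members, hosted by Gm26939, Gm26573 and Gm28403.

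One of the ends used most was the lower end 1:97182978 in the predicted gene Gm7133, with 10 long circles. Their upper ends varied, and their spans ran from 55553 to 119397 bases. The most abundant circRNA of this end was a short one of 6390 bases, at 0 and 1823 SRPBM in the controls and 2516, 2737 and 2011 after triptolide. The most abundant long circle there spanned 86679 bases and had 563 and 729 SRPBM in the controls and 526, 664 and 496 after triptolide. The long circle of 60632 bases had 87 and 82 SRPBM in the controls and 95, 248 and 87 after triptolide, and the other 8 long circles had means of 3.4 to 35.8 SRPBM. Control 1 was thus at 0 for the most abundant circRNA of this end and above 0 for the long circles of 86679 and 60632 bases. Several low circles of this end were also at 0 in control 1.

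**Figure D3:**
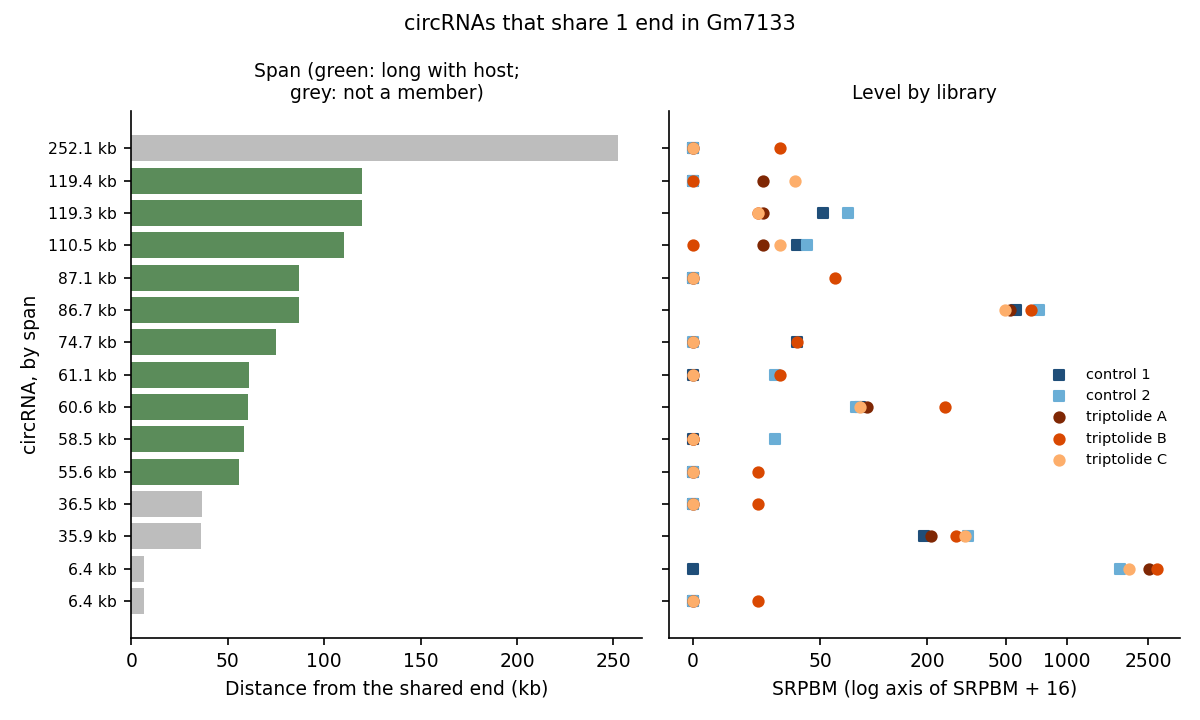
The 15 circRNAs that share the lower end in Gm7133, ordered by span: at left the distance in kb from the shared end to the other end (green, the 10 long circRNAs with a host symbol; grey, the other 5), at right SRPBM by library on a log axis of SRPBM + 16 (squares control, circles triptolide). The short circle of 6390 bases is at 1823 to 2737 SRPBM in 4 libraries and at 0 in control 1, while the long circle of 86679 bases is at 496 to 729 SRPBM in all 5.

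At the lower end used by the Gbe1 circle, 1 of 6 long circles held nearly all the signal, and the next, of 76687 bases, had 0 and 74 SRPBM in the controls and 105, 26 and 26 after triptolide. The Bbs9 end 9:22643745 was shared by long and short circles alike. Its short circle of 35319 bases, the highest circRNA of the table, had 14656 and 9396 SRPBM in the controls and 7337, 8672 and 7385 after triptolide. Its long circles of 168798 and 150188 bases had means of 787.4 and 677.2 SRPBM. The ends of Gm7133, Gbe1 and Bbs9 were chosen after their values were seen.

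Both Bbs9 circles were higher in control 1 than in any other library. The longer had 1583 and 638 SRPBM in the controls and 382, 620 and 714 after triptolide, so that the groups overlapped. Its log2 fold change on the SRPBM + 16 scale was -0.84 ± 0.44 (SE), with a limma adjusted p of 0.68. It was -0.20 without control 1 and -1.49 without control 2, where limma called it (adjusted p = 0.0014). The other had 1055 and 679 SRPBM in the controls and 449, 611 and 592 after triptolide, without overlap (log2 fold change -0.62 ± 0.31 SE, limma adjusted p = 0.68). Without control 1 its log2 fold change was -0.31.

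The circle of Dnah7c, an axonemal dynein heavy chain gene (1:46455755-46535244), had 0 and 1292 SRPBM in the controls and 1014, 1319 and 1036 after triptolide. A circle with the same lower end and an upper end 4 bases further had 61 and 33 SRPBM in the controls and 0, 26 and 0 after triptolide. Other circles of that lower end were above 0 in control 1, among them one of 38970 bases at 193 and 107 SRPBM in the controls and 210, 168 and 174 after triptolide. Dnah7c and its neighbour Dnah7b are close copies, so reads may be shared between them and values of both are uncertain. The Dnah7b circle of 63641 bases had 167 and 248 SRPBM in the controls and 143, 186 and 148 after triptolide, with overlap.

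Zeros of this kind were frequent in control 1. Of the long circRNAs with at least 50 SRPBM in each of the other 4 libraries, 18 of 93 (19.4%) were at 0 in control 1. In control 2 and in triptolide A, B and C this held for 0 of 78, 0 of 81, 1 of 75 (1.33%) and 1 of 82 (1.22%). Over all circRNAs of the table the share was 16.5% in control 1 (119 of 721) and 0.839% to 1.59% in the other libraries, so the zeros were not confined to long circles. The 18 circles came from 16 hosts, had means of 63 to 932.2 SRPBM, and summed to 5868 SRPBM in control 2 and to 4833, 5457 and 5138 SRPBM after triptolide. For 16 of the 18, another circRNA that uses one of the same ends was above 0 in control 1. The same share was not taken over all members. Of all members, 90.1% shared an end with another hosted circRNA, so the count gives no result particular to the 18.

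**Figure D4:**
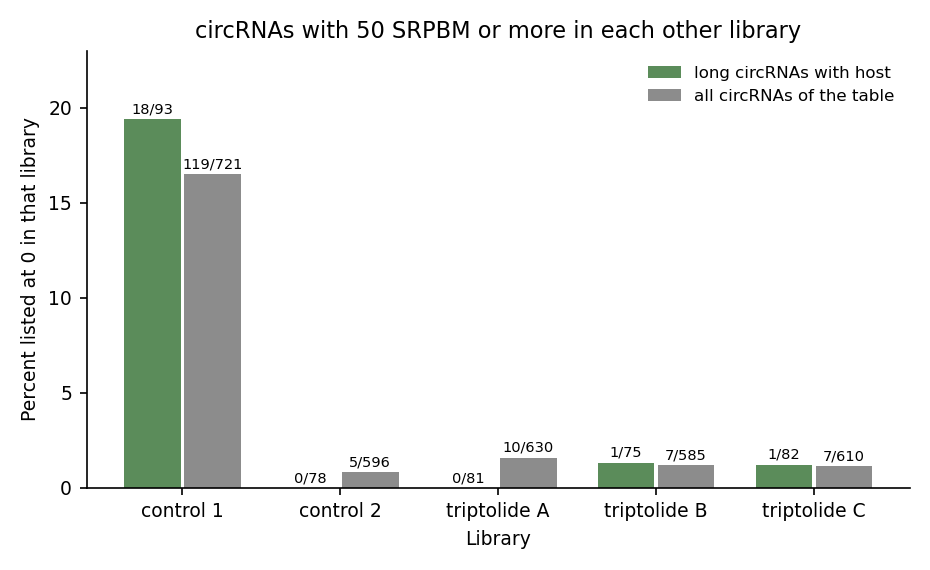
Percent of circRNAs listed at 0 in a library among those with 50 SRPBM or more in each of the other 4 libraries, for long circRNAs with a host (green) and all circRNAs of the table (grey), with the counts above the bars. Control 1 reaches 19.4% and 16.5%, and every other bar is at or below 1.59%.

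The hosts of these 18 circles, beside Dnah7c, included Dock3, an activator gene for Rac GTPases, whose circle had 0 and 455 SRPBM in the controls and 420, 558 and 322 after triptolide. A Vps13b circle of 54553 bases had 0 and 339, then 277, 301 and 557 SRPBM, and an Lrba circle of 69877 bases 0 and 290, then 172, 265 and 461 SRPBM. For these 3 the control 2 value lay among the triptolide values. For some others of the 18 it lay above all of them, as in a Tasp1 circle of 72370 bases (0 and 290, then 210, 265 and 217 SRPBM). In limma the log2 fold changes of the Dnah7c, Dock3, Vps13b and Lrba circles were 2.97, 2.34, 2.32 and 2.07, each with an adjusted p of 0.68. Without control 1 the values for Dnah7c, Dock3, Vps13b and Lrba were -0.21, -0.10, 0.08 and -0.06. The remaining pair of long circles at 0 in 1 library alone were those of Pias2 in triptolide C and of Stk39 in triptolide B.

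Whether triptolide changed the long circRNAs was asked first for their total. Summed SRPBM of the members was 36931 and 43382 in the controls and 37308, 44927 and 35942 after triptolide. The means, 40156.5 ± 4561.5 (SD, n = 2) and 39392.3 ± 4841.6 (SD, n = 3), differed by -764.2 SRPBM, less than the spread between libraries (two-sided exact permutation p = 0.9, where 0.1 is the smallest that 2 against 3 libraries allow). Long circRNAs took 10.6% and 12.1% of all circRNA SRPBM in the controls and 12%, 11.5% and 11.8% after triptolide (exact permutation p = 0.7). The number above 0 differed by -20.3 on average with triptolide (exact permutation p = 0.8). Control 1 was lowest in number and in share, and the groups overlapped in all 3 measures.

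Within the 456 shared hosts, the log2 ratio of long to shorter SRPBM was -1.86 and -1.64 in the controls and -1.63, -1.68 and -1.66 after triptolide. The difference of 0.09 was not beyond the spread (exact permutation p = 0.4), and control 1 alone stood apart. Without control 1 it was -0.02, and without the circRNAs at 0 in 1 library alone it was 0.00. Without control 1 the difference in the total was -3989.7 SRPBM, that in share turned to -0.329 percentage points, and that in number was -117.3. Without control 2 the difference in the total turned to 2461.3 SRPBM, that in share was 1.18 percentage points, and that in number turned to 76.7. Without the circRNAs at 0 in 1 library alone, the differences were -2881 SRPBM in the total, -0.204 percentage points in share and -28.7 in number (exact permutation p = 0.4, 0.3 and 0.7).

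Circle by circle, limma tested 654 members among 5457 circRNAs, all above 0 in 2 or more libraries, and the other 686 members were not tested. By limma's adjusted p under 0.05, 0 of the 654 differed, with a background of 0% over all circRNAs tested, and the smallest adjusted p was 0.68. Members had a median log2 fold change of -0.04, and all circRNAs tested one of -0.06. Without control 1 these medians were -0.27 and -0.19, and without control 2 they were 0.07 and -0.07. At an unadjusted limma p under 0.05, 5 members were higher (0.765%, background 1.8%) and 29 were lower (4.43%, background 4.8%). With edgeR on the recovered reads, 0 of 127 members passed an adjusted p under 0.05 (background 0%), and 2 had an unadjusted p under 0.05 (1.57%, background 3.34%). Without control 2, which leaves control 1 as the only control and assumes that it varies like the other libraries, limma called 20 of 545 members tested (3.67%, background 2.85%). Of these, 18 were the circles at 0 in control 1 alone. Without control 1 it called 0.

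Order alone gave the same picture. In 41 members all triptolide libraries lay above both controls (6.27%, background 6.78%), and in 68 all lay below (10.4%, background 10.5%). At 0 in both controls and above 0 in all triptolide libraries were 13 members (1.99%, background 2.24%). The reverse, 0 in all triptolide libraries and above 0 in both controls, held for 24 (3.67%, background 3.79%). Each share of the members was near that of the whole table.

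The members with the smallest p and no overlap are given as values, since none passed the adjusted threshold (limma adjusted p = 0.68 for each). A circle of Cpeb3, a gene for a translational regulator that binds sequence elements of messenger RNAs, spanned 71048 bases and had 0 and 16 SRPBM in the controls and 47, 124 and 87 after triptolide. A shorter Cpeb3 member of 51683 bases went the other way, with 87 and 66 SRPBM in the controls and 19, 62 and 26 after triptolide. A Cep112 circle of 144243 bases had 79 and 58 SRPBM in the controls and 133, 230 and 156 after triptolide. It was the only one of the 8 such higher members above 0 in all 5 libraries, with a log2 fold change of 1.14 ± 0.41 (SE). An Lrba circle of 194592 bases was listed at 0 in both controls and had 28, 70 and 69 SRPBM in triptolide libraries. Circles of Rims2 (70644 bases), Mir99ahg, Anks1b, Faf1 and Adk were likewise listed at 0 in both controls, with 17 to 52 SRPBM in triptolide libraries. These amounts correspond to few reads, since 2 reads are worth 16 to 19 SRPBM.

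**Figure D5:**
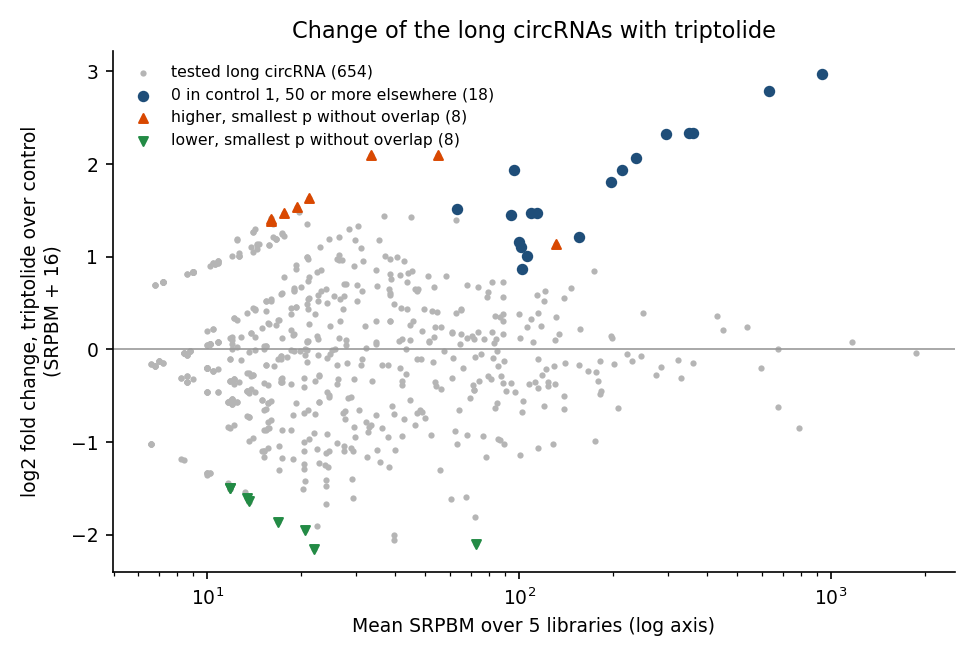
log2 fold change (triptolide over control, on SRPBM + 16) against mean SRPBM (log axis) for the 654 tested long circRNAs (grey). Blue points are the 18 circles at 0 in control 1 alone, which hold the largest positive values at high level; triangles are the 8 higher and 8 lower circles with the smallest p and no overlap between groups, none past the adjusted threshold.

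Among the lower members, a circle of Scaper of 51190 bases had 167 and 116 SRPBM in the controls and 28, 0 and 52 after triptolide (log2 fold change -2.10 ± 0.70 SE). The Scaper circle of 130929 bases, the highest of that host, had 395 and 348, then 315, 380 and 217 SRPBM, and overlapped between groups. One of 76484 bases had 237 and 265, then 133, 159 and 78 SRPBM, without overlap (limma adjusted p = 0.68). Over the 14 tested Scaper circles the median log2 fold change was -0.11. At an unadjusted limma p under 0.05, 0 of these were higher and 3 lower (background 1.8% and 4.8%). A circle of Pola1, the gene of the catalytic subunit of DNA polymerase alpha, had 52 and 58 SRPBM in control and was listed at 0 in all triptolide libraries. So were circles of Catsperb (82282 bases, 43 and 41 SRPBM in control), Mbd5 (35 and 33 SRPBM) and Rev3l, a translesion polymerase subunit gene (26 and 33 SRPBM). Circles of Man2a1, Mlip and Ralgps1 followed with 24 to 79 SRPBM in control. Catsperb, Rev3l, Ralgps1 and Man2a1 each had another long circle, above 0 in all 5 libraries, that overlapped between groups. That of Catsperb spanned 86186 bases, with the same lower end, and had 158 and 273 SRPBM in the controls and 191, 256 and 130 after triptolide. That of Rev3l spanned 57286 bases, also with the same lower end, and had 193 and 74 SRPBM in the controls and 105, 88 and 78 after triptolide.

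By host function, 11 lists of genes were read for their long circles, and in each list 0 members passed limma's adjusted p under 0.05. Counts at an unadjusted limma p under 0.05 stand against the background of 1.8% higher and 4.8% lower over all circRNAs tested. Axoneme and flagellum genes gave 52 long circRNAs from 13 hosts, of which 26 were tested, 0 were higher and 1 was lower at that p, with a median log2 fold change of -0.22. The 45 circles of centrosome, basal body and ciliary transport genes came from 11 hosts, with a median of -0.01 over 22 tested, 1 higher and 0 lower. Meiosis and DNA repair genes gave 25 circles from 9 hosts (median -0.10 over 14 tested, 0 higher and 1 lower), with Wrn, a RecQ helicase gene, at 79 and 215 SRPBM in the controls and 105, 230 and 156 after triptolide. Genes of germ-cell RNA regulation and the piRNA pathway gave 23 circles (median 0.07 over 14 tested, 1 higher and 0 lower). Genes of sperm ion channels, transporters and the acrosome gave 41 (median -0.08 over 23 tested, 0 higher and 3 lower). These medians stand beside -0.06 for all circRNAs tested.

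Among the other lists, chromatin and transcription regulators gave 35 long circles, with a median log2 fold change of -0.19 over 17 tested, 0 higher and 2 lower at an unadjusted limma p under 0.05. A circle of Rere, a nuclear receptor corepressor gene, had 140 and 207 SRPBM in the controls and 105, 62 and 60 after triptolide, without overlap (log2 fold change -1.06 ± 0.43 SE, limma adjusted p = 0.68). Cell adhesion and synaptic genes gave 58 (median -0.01 over 34 tested, 1 higher and 0 lower). Regulators of actin, microtubules and small GTPases gave 60 (median -0.25 over 34 tested, 0 higher and 3 lower). Kinase, phosphatase and calcium signalling genes gave 51 (median -0.08 over 29 tested, 0 higher and 0 lower). Hosts often studied for conserved circRNAs gave 72 (median 0.16 over 39 tested, 1 higher and 1 lower). The 57 genes of the ubiquitin system gave 9 long circles from 7 hosts, of which 1 was tested, and 173 shorter ones. The whole table held 1340 long and 9019 shorter circles with a host. Every other list held relatively more long circles than the whole table. These ran from 35 long and 197 shorter for chromatin and transcription regulators to 58 and 90 for cell adhesion and synaptic genes. This balance was not tested.

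A second readout of the same libraries, the lncRNA table, covers loci inside these spans. Wholly inside a long circRNA lay 65 lncRNA loci of 58 hosts, 42 classed by the authors as antisense and 20 as intronic, and 120 members held at least 1. With edgeR on expected counts summed per locus, 22 of them were tested, 1 was higher at an adjusted p under 0.05 (4.55%, background 5.01%) and 1 lower (4.55%, background 2.26%). Gm26880, antisense inside a circle of Gm26573 (locus at 4:146501751-146512448), had 12 and 10 counts in the controls and 28, 47 and 52 after triptolide. All triptolide libraries were above both controls, and the log2 fold change was 1.93 ± 0.40 (SE, edgeR adjusted p = 0.0026). A Gm26573 circle that covers this locus, 186387 bases long, was itself at 66 SRPBM in control 2 alone.

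Gm13091, an intronic locus inside a circle of Rere other than the one given (4:150565506-150569437), had 179 and 116 counts in the controls and 92, 83 and 62 after triptolide. All triptolide libraries were below both controls (log2 fold change -0.89 ± 0.25 SE, edgeR adjusted p = 0.023). This call was lost without control 1, triptolide B or triptolide 3, and with DESeq2. Without a stated strand setting in the counting, reads of an antisense or intronic locus and of its host cannot be told apart.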

How the data were processed

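Testis RNA of 2 control and 3 triptolide libraries was measured. The authors deposited circRNA values as SRPBM, a rounded normalized score, per the file headers and name. For lncRNAs the authors deposited expected counts, by the headers; these were rounded and summed per locus, 947272 to 1070991 per library. HISAT2 2.0.1, bedtools 2.17.0, DESeq and HTSeq 0.6.1 are named in the submitters' processing notes, with no role; no circRNA caller is named there. The notes name hg19, yet of 1276 members whose symbol is in the RefSeq table (GRCm38.p6), 1264 (99.1%) lay inside that mouse gene. Coordinates are printed as deposited.

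Columns were matched by header. The 3 triptolide circRNA columns share 1 header and are called A, B and C, letters unrelated to A, B and 3 of the lncRNA table. Its 5 FPKM columns were not used, nor was the mRNA table, whose transcript IDs the tables used here do not pair with genes.

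limma 3.58.1 (trend, R 4.3.3) was run for circRNAs above 0 in 2 or more libraries, on log2(SRPBM + 16), which understates changes of low circRNAs, with Benjamini-Hochberg adjustment over 5457 circRNAs and a threshold of 0.05. After division by the worth of 1 read, 95.9% to 97.3% of values above 0 were whole to within 0.1; edgeR 4.0.16 ran on those reads as an alternative, and as the main test (quasi-likelihood, filterByExpr, TMM) on lncRNA loci, with DESeq2 1.42.0 beside it. Sums used two-sided exact permutation over 10 assignments. Scripts were tested on simulated data. Leaving out each library, other pseudocounts (1 and 50), filters, scalings and span thresholds (40000 and 100000 bases) were tried.

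The rule for named circles took the 10 of highest mean, the 6 longest, the 20 highest above 0 in all libraries, the 8 higher and 8 lower with the smallest p and no overlap, those at 0 in 1 whole group, the 8 hosts with most members, the circles nearest the threshold, 4 per host list and 5 lncRNA loci. Circles at 0 in 1 library and those sharing ends were added after their values were seen. Members and lists were chosen with earlier results of these data known. Circles of 1 host gene are not reported here by name.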

Additional observations from a re-analysis of the deposited data

How the results depend on the processing

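The count of long circRNAs called by limma stayed at 0 with pseudocounts of 1 or 50, with circRNAs above 0 in all 5 libraries, with equal summed SRPBM, with edgeR and without the circRNAs at 0 in 1 library alone (an alternative chosen after seeing the data). It was 6 with no filter, all of them circles at 0 in control 1 alone, and 0 to 20 when 1 library was left out, with 20 only without control 2. Members at an unadjusted p under 0.05 and higher numbered 15 with pseudocount 1, 19 with no filter, 2 with edgeR, 3 without circRNAs at 0 in 1 library alone, and 6 to 43 with 1 library left out. Lower ones numbered 13 with no filter, 12 above 0 in all libraries, 0 with edgeR and 6 to 49 with 1 library left out. Members wholly above the controls numbered 76 to 118 and wholly below 92 to 145 with 1 library left out, since fewer libraries overlap less. Lower lncRNA loci numbered 2 with no filter, 0 with DESeq2 and 0 to 2 with 1 library left out, while the higher count stayed at 1. The counts of long circRNAs above rest on unlike numbers tested: 654 in the main fit, 1340 with no filter and 177 above 0 in all 5 libraries. With edgeR 127 were tested, and with 1 library left out 545 to 595. For most of these settings no share over all circRNAs was taken, so the counts give no result particular to long circRNAs. The difference in total became 1467.8 SRPBM at equal summed SRPBM and ran from -3989.7 to 2461.3 with 1 library left out. That in share was -0.204 points without circRNAs at 0 in 1 library alone and ran from -0.329 to 1.18 points with 1 library left out, and that in number from -117.3 to 76.7. The log2 ratio within hosts was -0.12 as a median over hosts and 0.00 without circRNAs at 0 in 1 library alone, and ran from -0.02 to 0.20 with 1 library left out; the cause was not tested. With 1 library left out, log2 fold changes ran from -0.21 to 6.14 for Dnah7c and -0.10 to 4.78 for Dock3. They ran from 0.08 to 4.56 for the Vps13b circle of 54553 bases and -0.06 to 4.20 for the Lrba circle of 69877 bases. For the Bbs9 circle of 168798 bases they ran from -1.49 to -0.20. In edgeR the median log2 fold change of all circRNAs moved by 0.16 from that in limma, and with pseudocount 1 by -0.17. No paired analysis was possible because the triptolide circRNA columns carry no replicate numbers of their own, so the replicate block was not run. Most members rest on few junction reads: at 2 reads per value, changes of low circles were not detectable at this depth.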

Other observations

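The table also lists 394 circRNAs of more than 50000 bases without a host symbol, up to 495266 bases long. They summed to 5855 and 6243 SRPBM in the controls and 4859, 6765 and 4627 after triptolide, with overlap. Their median mean was 5.6 SRPBM, 65.5% were above 0 in 1 library alone and 5.58% in all 5. At least 1 end was shared with a hosted circRNA in 144 of them (36.5%), and both ends in 21. One of the 3 highest (1:46078523-46482056, 403533 bases) joins an end used by circles of Dnah7b to an end used by circles of Dnah7c, both axonemal dynein heavy chain genes and close copies. It had 307 and 190 SRPBM in the controls and 162, 239 and 165 after triptolide. The highest, on chromosome Y (90739142 to 90793417), had 290 and 174 SRPBM in the controls and 315, 460 and 60 after triptolide.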
